A study of Mus musculus with 39 samples.

Results

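The interferon-stimulated genes described here are 37 genes that type I or type II interferon induces and were listed by name from knowledge of the pathway. All 37 were found by symbol among the 55416 genes of the count table, and all 37 passed the filter on low counts that left 15296 genes for testing. By role they are 20 antiviral effectors (Ifit1, Ifit2, Ifit3, Ifit3b, Ifi44, Ifi27, Oas1a, Oas2, Oas3, Oasl1, Oasl2, Mx1, Mx2, Rsad2, Bst2, Xaf1, Parp14, Trim30a, Rtp4 and Cmpk2), Isg15 with its protease Usp18, 3 nucleic acid sensors (Ifih1, Dhx58 and Zbp1), 4 transcription factors (Irf1, Irf7, Irf9 and Stat2) and 8 GTPases induced mainly by interferon gamma (Gbp2, Gbp3, Gbp6, Gbp7, Igtp, Irgm1, Irgm2 and Iigp1). They were measured by RNA sequencing of snap-frozen whole liver from 39 male animals, each sequenced as its own library. Animals were CD163 knockouts carrying the Cd163tm1(KOMP)Vlcg allele or wildtype littermates, bred from heterozygous parents on C57BL/6NTac, so the allele is not limited to a cell type. Macrophages carry CD163 as a scavenger receptor. From 6 weeks of age and for 8 weeks, the mice ate either an Altromin maintenance chow with plain water (5 wildtype, 4 knockout) or Western diet plus fructose water (15 wildtype, 15 knockout).

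Interferons are secreted proteins that cells release after sensing foreign or misplaced nucleic acids, or, for interferon gamma, that activated T and NK cells release. Type I interferon acts through the kinases JAK1 and TYK2, and a complex that contains STAT2 and IRF9 then binds the interferon-stimulated response element, whereas interferon gamma acts through JAK1 and JAK2 on genes with a gamma-activated site. In liver, hepatocytes, Kupffer cells and endothelial cells all carry receptors for these proteins, and the induced genes are the usual readout of interferon exposure because the ligands themselves are scarce as RNA. In bulk tissue, fewer cells of a type and less RNA per cell cannot be told apart.

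Library totals lay between 8578865 and 30438808 counts, with a median of 14573193. Cd163 itself had 41 to 252 counts in the wildtype and 0 to 12 in the knockout libraries, in keeping with every genotype label. By the mean log2 CPM of 7 sterol synthesis genes, which a diet rich in cholesterol lowers, 4 libraries resembled the opposite diet group. Wildtype chow A (4.38) and knockout chow D (4.17) lay below the other chow livers (6.23 to 6.85), and wildtype Western diet A (6.73) and knockout Western diet M (6.87) lay above the other Western diet livers (3.38 to 5.15). The 4 libraries were kept under their labels, and results are also given without them. In the wildtype Western diet group, L and M differed least of any pair within a group, with a chi-square per gene of 2.89 where the next closest pair had 6.72 and the median was 36.9, and stayed separate mice. Albumin and the other hepatocyte markers marked all libraries as liver, at a summed 41646 to 78712 CPM over 6 genes.

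The promoters of several of these genes carry the sequences that the activated transcription factors bind, and some are shown to place the motifs in their sequence. A RefSeq promoter window was at hand for 26 of the 37 genes, and the 250 bases before the start were searched on both strands. The core of the interferon-stimulated response element, GAAANNGAA, occurred in 17 of these 26 genes (65.4%), against 8.18% of 27025 genes with a window. The gamma-activated site, TTCNNNGAA, occurred in 7 of the 26 (26.9%), against 8.13% of all. The stretches below run from 160 to 41 bases before the start on the strand of the gene, with matches to either motif in capitals, and overlapping matches run together. Coordinates are those of RefSeq on GRCm38.p6, an older assembly than the GRCm39 of the counts.
Isg15, minus strand, chr4:156200859-156200978: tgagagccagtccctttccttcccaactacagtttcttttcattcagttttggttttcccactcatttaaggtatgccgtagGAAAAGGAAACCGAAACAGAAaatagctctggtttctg
Ifit1, plus strand, chr19:34640729-34640848: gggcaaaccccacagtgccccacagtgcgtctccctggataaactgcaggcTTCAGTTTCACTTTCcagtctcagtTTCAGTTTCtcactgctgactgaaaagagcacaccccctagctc
Rsad2, minus strand, chr12:26456493-26456612: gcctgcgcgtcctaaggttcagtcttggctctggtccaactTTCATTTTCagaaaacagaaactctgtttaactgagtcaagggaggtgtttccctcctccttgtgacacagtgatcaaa
Bst2, minus strand, chr8:71537513-71537632: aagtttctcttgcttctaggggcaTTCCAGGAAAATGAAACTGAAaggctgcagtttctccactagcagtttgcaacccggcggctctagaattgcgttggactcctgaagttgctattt
Irgm2, plus strand, chr11:58214817-58214936: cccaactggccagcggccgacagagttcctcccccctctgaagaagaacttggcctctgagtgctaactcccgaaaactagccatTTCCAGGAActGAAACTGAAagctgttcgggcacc
Irf1, plus strand, chr11:53769854-53769973: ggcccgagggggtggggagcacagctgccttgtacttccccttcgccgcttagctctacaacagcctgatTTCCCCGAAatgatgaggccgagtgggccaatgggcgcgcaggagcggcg
Oasl1, plus strand, chr5:114923080-114923199: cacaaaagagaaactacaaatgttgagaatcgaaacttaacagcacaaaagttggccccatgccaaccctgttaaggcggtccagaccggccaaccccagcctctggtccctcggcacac
Isg15 and Ifit1 each held 3 response element cores, as did Ifit3 and Ifit3b, the most among the 26 genes. Rsad2 held 1 core. Bst2 held 2 cores and a gamma-activated site that overlaps the first of them, and Irgm2, a GTPase of the interferon gamma group, held 1 of each, 64 and 75 bases before the start. Irf1 held a gamma-activated site 90 bases before its start and no core. Oasl1 held neither motif in its window of 250 bases, which says only that these letters do not occur there.

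Expression is given as CPM, counts scaled to the size of the library with TMM factors. CPM does not correct for gene length, so levels are compared between livers and not between genes. The mean log2 CPM over the 37 genes was 3.85 ± 0.25 (SD, n = 5) in wildtype chow, 3.84 ± 0.10 (n = 4) in knockout chow, 3.97 ± 0.20 (n = 15) in wildtype Western diet and 3.90 ± 0.34 (n = 15) in knockout Western diet livers. The ranges of all 4 groups overlapped, and single livers differed more than group means. Knockout Western diet F stood at 4.85, above all the other 38 livers, which spanned 3.34 to 4.29. Wildtype chow A was second at 4.29, whereas the other 4 wildtype chow livers lay between 3.69 and 3.76. The lowest were knockout Western diet D (3.34) and J (3.45).

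**Figure D1:**
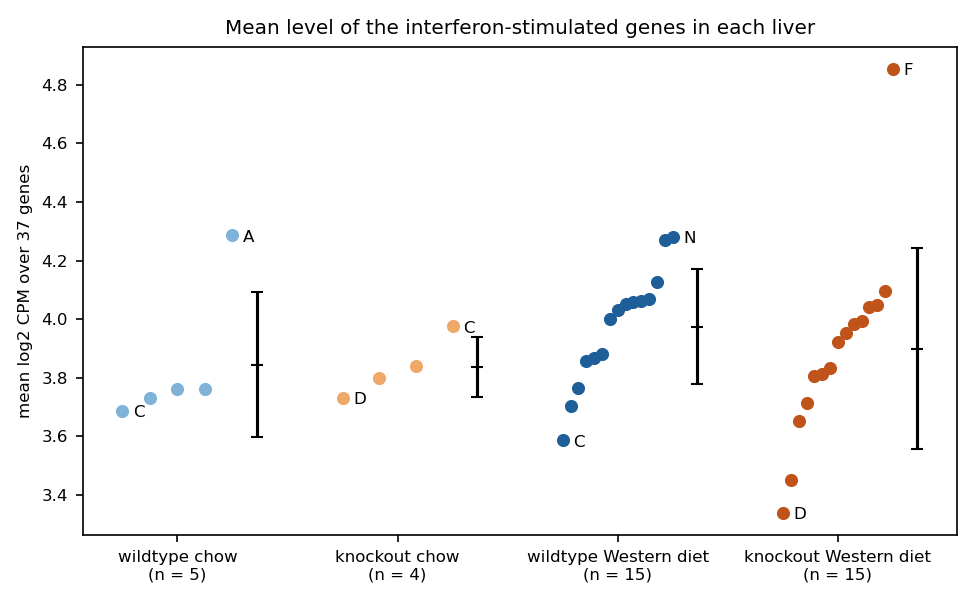
Mean log2 CPM over the 37 interferon-stimulated genes in each of 39 livers, 1 point per liver by group, with the mean and SD of each group beside its points and the letters of the lowest and highest liver. Knockout Western diet F at 4.85 stands above every other liver, and the 4 groups overlap.

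Within groups, the SD of log2 CPM had a median of 0.40 over the 37 genes and of 0.31 over all 15296 genes tested, and of 0.34 and 0.30 without knockout Western diet F. Oas3, which makes the second messenger that activates RNase L, varied most (SD 0.66), followed by Gbp2 (0.57) and Ifi44 (0.56). Irf9 and Bst2 varied least (both 0.19).

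**Figure D2:**
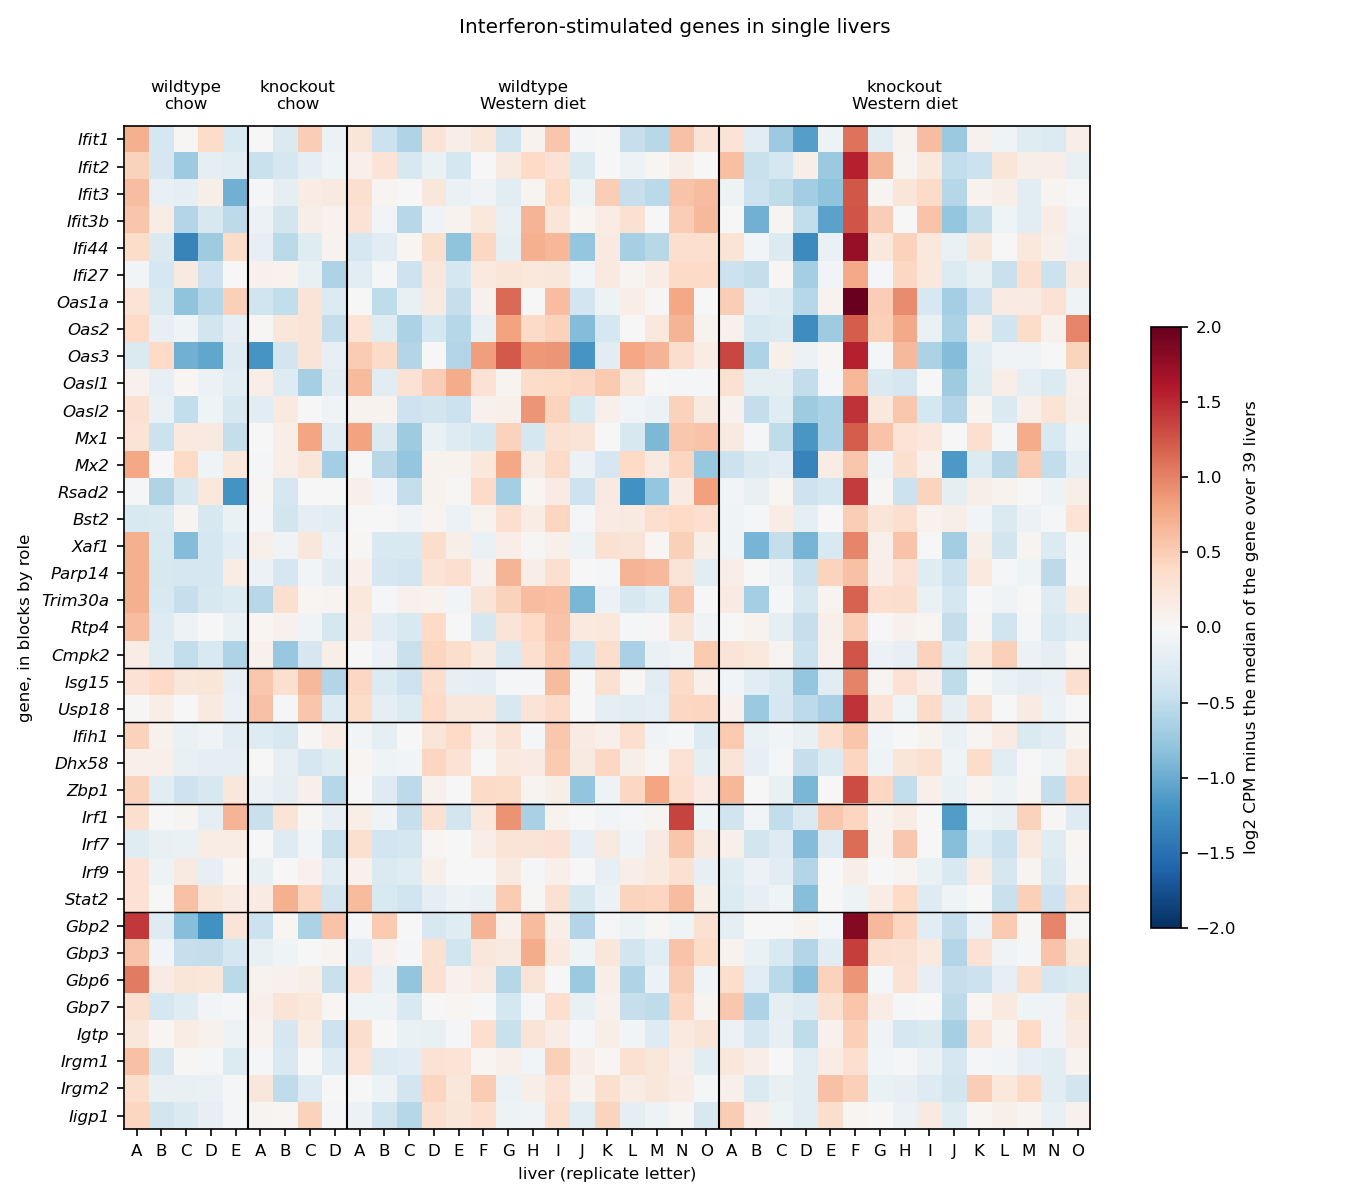
Log2 CPM of each of the 37 genes (rows, in blocks by role) in each of 39 livers (columns, by group), as the difference from the median of the gene over all livers, with colours ending at 2 in either direction. The column of knockout Western diet F is high in most rows, with Stat2 and Iigp1 close to the median, and wildtype chow A is high in most effectors and GTPases.

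The comparison of knockout with wildtype mice on Western diet asks whether the loss of CD163 moves the interferon programme in the fed liver. None of the 37 genes passed the edgeR quasi-likelihood test at an adjusted p of 0.05, where 0.00654% of genes tested did, which is Cd163 alone. DESeq2 and limma voom called 0 of the 37 as well, where 0.0196% and 0.00654% of genes passed. At an unadjusted p under 0.05 there was 1 of 37, Oasl1, against 5.08% of all genes. The log2 fold change was negative, meaning a lower value in knockout livers, for 23 of 37 genes (62.2%, against 46.5% of all genes tested) and positive for 14 (53.5% of all genes), with a median of -0.08 against 0.01 over all genes. For all 37 genes the 95% interval of the fold change lay within 2-fold either way.

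Of the antiviral effectors, 13 of 20 had a negative fold change, and none passed. Oasl1, an OAS-like protein without synthase activity that limits translation of Irf7 in mice, had the smallest p. Its level ranged from 14.3 to 27.9 CPM (median 20.4) in wildtype and from 10.2 to 26.5 CPM (median 14.7) in knockout Western diet livers. Only knockout livers A and F exceeded the wildtype mean of 20.5 CPM, and the ranges overlapped. Oasl1 had a log2 fold change of -0.37 (SE 0.11, adjusted p = 0.943), with an adjusted p of 0.207 without knockout Western diet F and 0.744 without the 4 libraries. Rtp4, a chaperone of G protein-coupled receptors that also binds viral RNA, ranged from 17.5 to 32.9 CPM (median 24.9) in wildtype and from 16.0 to 31.2 CPM (median 22.02) in knockout livers. Knockout liver F alone exceeded the wildtype mean of 24.1 CPM, and the log2 fold change was -0.19 (SE 0.10, adjusted p = 0.943). The other 18 effectors, among them the RNA-binding Ifit proteins, the synthases of the OAS family, viperin (Rsad2) and tetherin (Bst2), had log2 fold changes between -0.21 for Mx2 and 0.20 for Ifi44.

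Isg15 is a ubiquitin-like protein that is joined to other proteins, and Usp18 removes it again and restrains the type I receptor. Isg15 ranged from 7.12 to 14.8 CPM (median 9.43) in wildtype and from 5.50 to 18.9 CPM (median 8.64) in knockout Western diet livers, with liver F at the top. Usp18 ranged from 8.14 to 13.8 CPM (median 11.9) in wildtype and from 6.03 to 27.98 CPM (median 10.1) in knockout livers. The knockout range of Usp18 without liver F ended at 13.3 CPM, inside the wildtype range. The log2 fold changes were -0.08 (SE 0.13) for Isg15 and 0.00 (SE 0.15) for Usp18.

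None of the sensors and transcription factors passed. Dhx58 (LGP2), which assists the sensing of viral RNA, ranged from 19.0 to 30.9 CPM (median 24.2) in wildtype and from 15.5 to 29.1 CPM (median 21.2) in knockout livers (log2 fold change -0.12, SE 0.08, adjusted p = 0.956). Ifih1 (MDA5), a sensor of long double-stranded RNA, had medians of 26.2 and 24.5 CPM, with overlapping ranges of 20.3 to 35.7 and 20.1 to 35.9 CPM. All 4 transcription factors had negative fold changes, with a median of -0.16. Irf9, the DNA-binding subunit of the type I complex, ranged from 46.5 to 70.2 CPM (median 57.4) in wildtype and from 37.7 to 63.3 CPM (median 52.6) in knockout livers, and 4 of 15 knockout livers exceeded the wildtype mean (log2 fold change -0.13, SE 0.07, adjusted p = 0.943). Stat2, its partner, ranged from 112 to 229 CPM (median 150) in wildtype and from 81.6 to 207 CPM (median 138) in knockout livers (log2 fold change -0.19, SE 0.12, adjusted p = 0.943). Both groups of Stat2 values overlapped over most of their range.

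The GTPases had 5 of 8 positive fold changes. Irgm1, which acts on the membranes of vacuoles and in autophagy, ranged from 50.4 to 84.1 CPM (median 66.0) in wildtype and from 47.7 to 76.3 CPM (median 58.7) in knockout livers (log2 fold change -0.13, SE 0.08, adjusted p = 0.943). Gbp2, a guanylate-binding protein that attacks vacuoles of intracellular pathogens, ranged from 2.02 to 5.02 CPM (median 3.10) in wildtype and from 2.18 to 11.4 CPM (median 3.14) in knockout livers. Both medians of Gbp2 are nearly the same, while the knockout mean, which includes liver F at 11.4 CPM, was 4.03 ± 2.29 CPM and the wildtype mean 3.34 ± 0.87 CPM (log2 fold change 0.29, SE 0.22, adjusted p = 0.959).

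**Figure D3:**
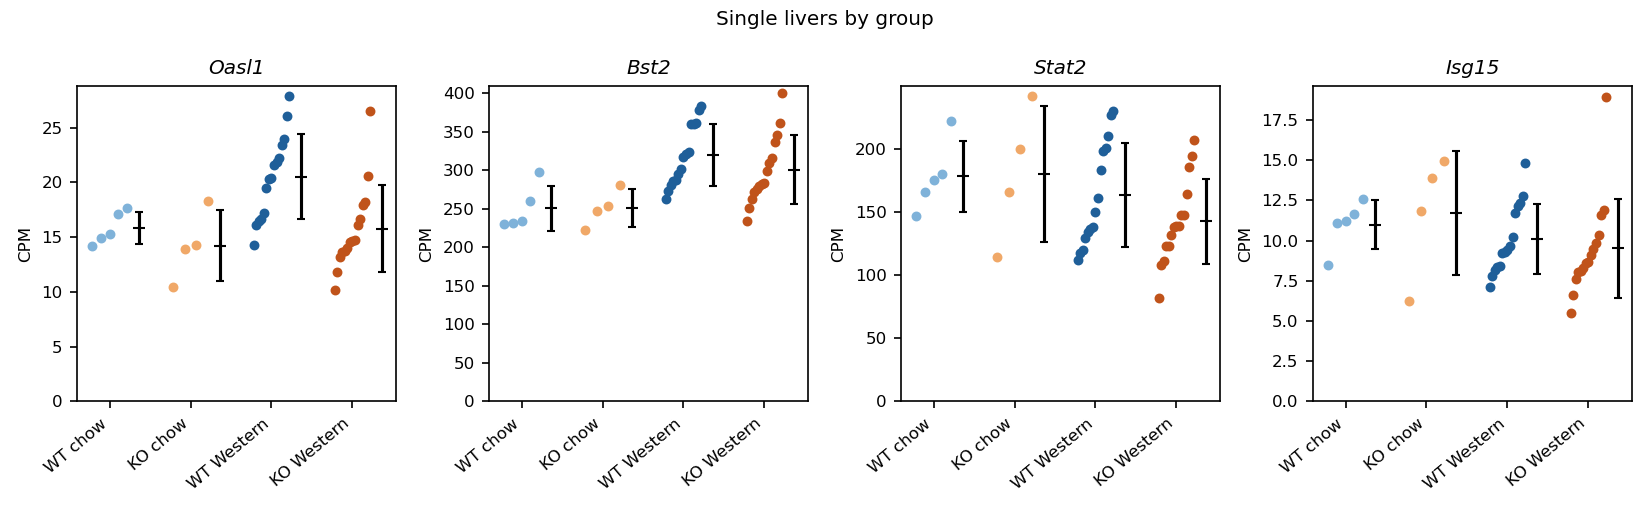
CPM of Oasl1, Bst2, Stat2 and Isg15 in single livers (points) with the mean and SD of each group, for wildtype (WT) and knockout (KO) mice on chow or Western diet. The groups overlap for each gene, and the highest knockout Western diet point of Oasl1, Bst2 and Isg15 is liver F.

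The fold changes in the Western diet comparison depended on single livers. With each of the 39 libraries left out in turn, the median over the 37 genes ran from -0.16 to -0.03, and 0 of 37 passed each time. Liver F was noticed because it stood highest for these genes. Leaving it out of the knockout group alone lowers that group by itself, so the counts without it are description only. Without knockout Western diet F, fold changes were negative for 34 of 37 genes (91.9%, against 49.8% of all genes), with a median of -0.16, and 6 of 37 had an unadjusted p under 0.05 against 4.65% of all genes. All 20 effectors were then negative. The exceptions were 3 of the 8 GTPases. Still, 0 of 37 passed the adjusted threshold, which 0.00658% of genes passed. Without this liver and the 4 libraries, a setting chosen with the values known, the counts were 34 of 37 negative, a median of -0.16 and 0 of 37 called (0.00651% of genes passed). With liver F kept and the 4 libraries left out, 22 of 37 were negative and 0 of 37 were called (0.00647% of genes passed).

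On chow, none of the 37 genes passed (0.00654% of all genes did, again Cd163 alone), and 0 of 37 had an unadjusted p under 0.05, against 2.74% of genes. DESeq2 and limma voom also called 0 of the 37, where 0.0131% and 0% of genes passed. Fold changes of knockout against wildtype chow livers were negative for 20 of 37 genes, and positive for 17 (50.9% of all genes), with a median of -0.03 against 0.00 for all genes, and no member had groups that did not overlap, against 0.66% of genes. For 36 of 37 genes the 95% interval lay within 2-fold either way. The members with the smallest p were the GTPases Irgm1, Gbp6 and Iigp1, with Mx2. Irgm1 was at 90.5, 48.3, 61.3, 59.5 and 49.8 CPM in wildtype chow A to E and at 58.6, 49.1, 60.4 and 50.5 CPM in knockout chow A to D. Wildtype chow A alone exceeded the highest knockout value by a wide gap. Gbp6 was at 9.42, 5.11, 5.37, 5.35 and 3.09 CPM in wildtype chow A to E and at 4.78, 4.82, 4.92 and 3.29 CPM in knockout chow A to D. The log2 fold changes were -0.18 (SE 0.15) for Irgm1 and -0.35 (SE 0.30) for Gbp6, with an adjusted p of 1.00 for both. They turned positive, at 0.0084 for Irgm1 and 0.012 for Gbp6, without the 4 libraries, of which wildtype chow A is one. Iigp1, which targets vacuoles of parasites, had a log2 fold change of 0.20 (SE 0.17), and Mx2, a dynamin-like GTPase that laboratory mice of this background carry in defective form, of -0.35 (SE 0.30).

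The diet comparison in wildtype mice asks what the Western diet does to the same genes. None of the 37 passed, where 1.39% of genes tested passed in either direction. Fold changes were positive for 28 of 37 genes, against 49.5% of all genes, with a median of 0.15 against -0.00 over all genes, and 3 of 37 had an unadjusted p under 0.05, where 17.2% of genes did. No member had groups that did not overlap, against 0.17% of genes. DESeq2 and limma voom each called 1 of the 37. With the 4 libraries left out, 32 of 37 were positive, with a median of 0.27 and 0 of 37 called, where 8.66% of genes passed. By role, 18 of 20 effectors and 3 of 3 sensors were positive, Isg15 and Usp18 were split, and 1 of 4 transcription factors and 5 of 8 GTPases were positive.

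Bst2, which tethers budding virus particles to the cell surface, came nearest to the threshold. It was at 231, 233, 297, 230 and 261 CPM in wildtype chow A to E and ranged from 263 to 384 CPM (median 317) in wildtype Western diet livers. All 15 Western diet livers exceeded the chow mean of 251 ± 29.0 CPM, and wildtype chow C reached into their range. The log2 fold change was 0.35 (SE 0.10, adjusted p = 0.0651). Bst2 passed in DESeq2 (adjusted p = 0.0259), where 3.37% of genes passed, and in limma voom (adjusted p = 0.02998), where 6.67% did. In edgeR it passed without wildtype Western diet A (adjusted p = 0.0416), where 3.29% of genes passed, or without knockout Western diet F (adjusted p = 0.0489), where 1.53% did, although F belongs to neither of the groups compared and enters only through the shared estimate of the spread. Its adjusted p was 0.0585 without the 4 libraries and 0.0381 without these and liver F, where 9.44% of genes passed. It was 0.115 without the filter on low counts, where 44 genes passed. With the running number of the library as a covariate it was 0.226, with a log2 fold change of 0.28, where 0 of all genes passed. Library numbers ran largely in blocks by group. Knockout Western diet A to M came before every wildtype Western diet liver, and wildtype chow B to E before wildtype Western diet C to O. A fit with this covariate therefore cannot fully separate library order from genotype or diet.

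Oasl1 was at 17.7, 14.9, 17.1, 15.3 and 14.2 CPM in wildtype chow A to E, and 14 of 15 wildtype Western diet livers exceeded the chow mean of 15.8 CPM. The log2 fold change was 0.38 (SE 0.15, adjusted p = 0.188). Oas3 was at 1.52, 2.53, 0.908, 0.844 and 1.54 CPM in wildtype chow and ranged from 0.759 to 4.57 CPM (median 2.49) in wildtype Western diet livers (log2 fold change 0.77, SE 0.37, adjusted p = 0.266). Western diet values of Oas3 began below the lowest chow value, so the ranges overlapped. Dhx58 had a log2 fold change of 0.23 (SE 0.11, adjusted p = 0.296), with 13 of 15 Western diet livers above the chow mean.

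In knockout mice none of the 37 passed between the diets, where 0.00654% of genes passed, and 26 of 37 fold changes were positive (49.9% of all genes), with a median of 0.11. No member had groups that did not overlap, against 0.0262% of genes. DESeq2 and limma voom called 0 of the 37, where 1.5% and 5.26% of genes passed, and 1 of 37 had an unadjusted p under 0.05 against 19.2% of genes. Bst2 was at 281, 222, 253 and 247 CPM in knockout chow A to D and ranged from 234 to 400 CPM (median 283) in knockout Western diet livers (log2 fold change 0.26, SE 0.11, adjusted p = 0.196). Knockout chow A, the highest of its group, lay just below the Western diet median. Dhx58 had a log2 fold change of 0.24 (SE 0.13, adjusted p = 0.288) and Ifit2, which binds viral RNA, of 0.48 (SE 0.26, adjusted p = 0.294). Without knockout Western diet F, the median over the 37 genes was 0.03 and 21 of 37 were positive, and without the 4 libraries as well it was -0.04 with 18 of 37 positive. The diet comparisons share no livers with each other but share them with the genotype comparisons.

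Stat2 and Isg15 were on the negative side in knockout mice. Stat2 was at 166, 242, 199 and 114 CPM in knockout chow A to D, against a median of 138 CPM in knockout Western diet livers, and 3 of 15 of these exceeded the chow mean (log2 fold change -0.34, SE 0.19, adjusted p = 0.303). When the 4 libraries were left out, knockout chow D among them, Stat2 fell by 0.52 on the log2 scale and passed (adjusted p = 0.0478), where 17.2% of genes passed. For Stat2 these libraries include the lowest knockout chow liver (D) and the highest knockout Western diet liver (M), which by itself widens the fall. Isg15 was at 13.9, 11.8, 14.9 and 6.26 CPM in knockout chow A to D, so that liver D was the lowest by a wide gap. The log2 fold change of Isg15 came to -0.29 (SE 0.20, adjusted p = 0.420). Without the 4 libraries and knockout Western diet F, Isg15 fell by 0.59 on the log2 scale (adjusted p = 0.0181), where 17.8% of genes passed, and Stat2 had an adjusted p of 0.0503. That setting and Isg15 were chosen with the values known. It leaves out the lowest knockout chow liver (D) and the highest knockout Western diet liver (F) for Isg15, which by itself widens the fall. In wildtype mice Stat2 had a log2 fold change of -0.13 and Isg15 of -0.12 between the diets.

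**Figure D4:**
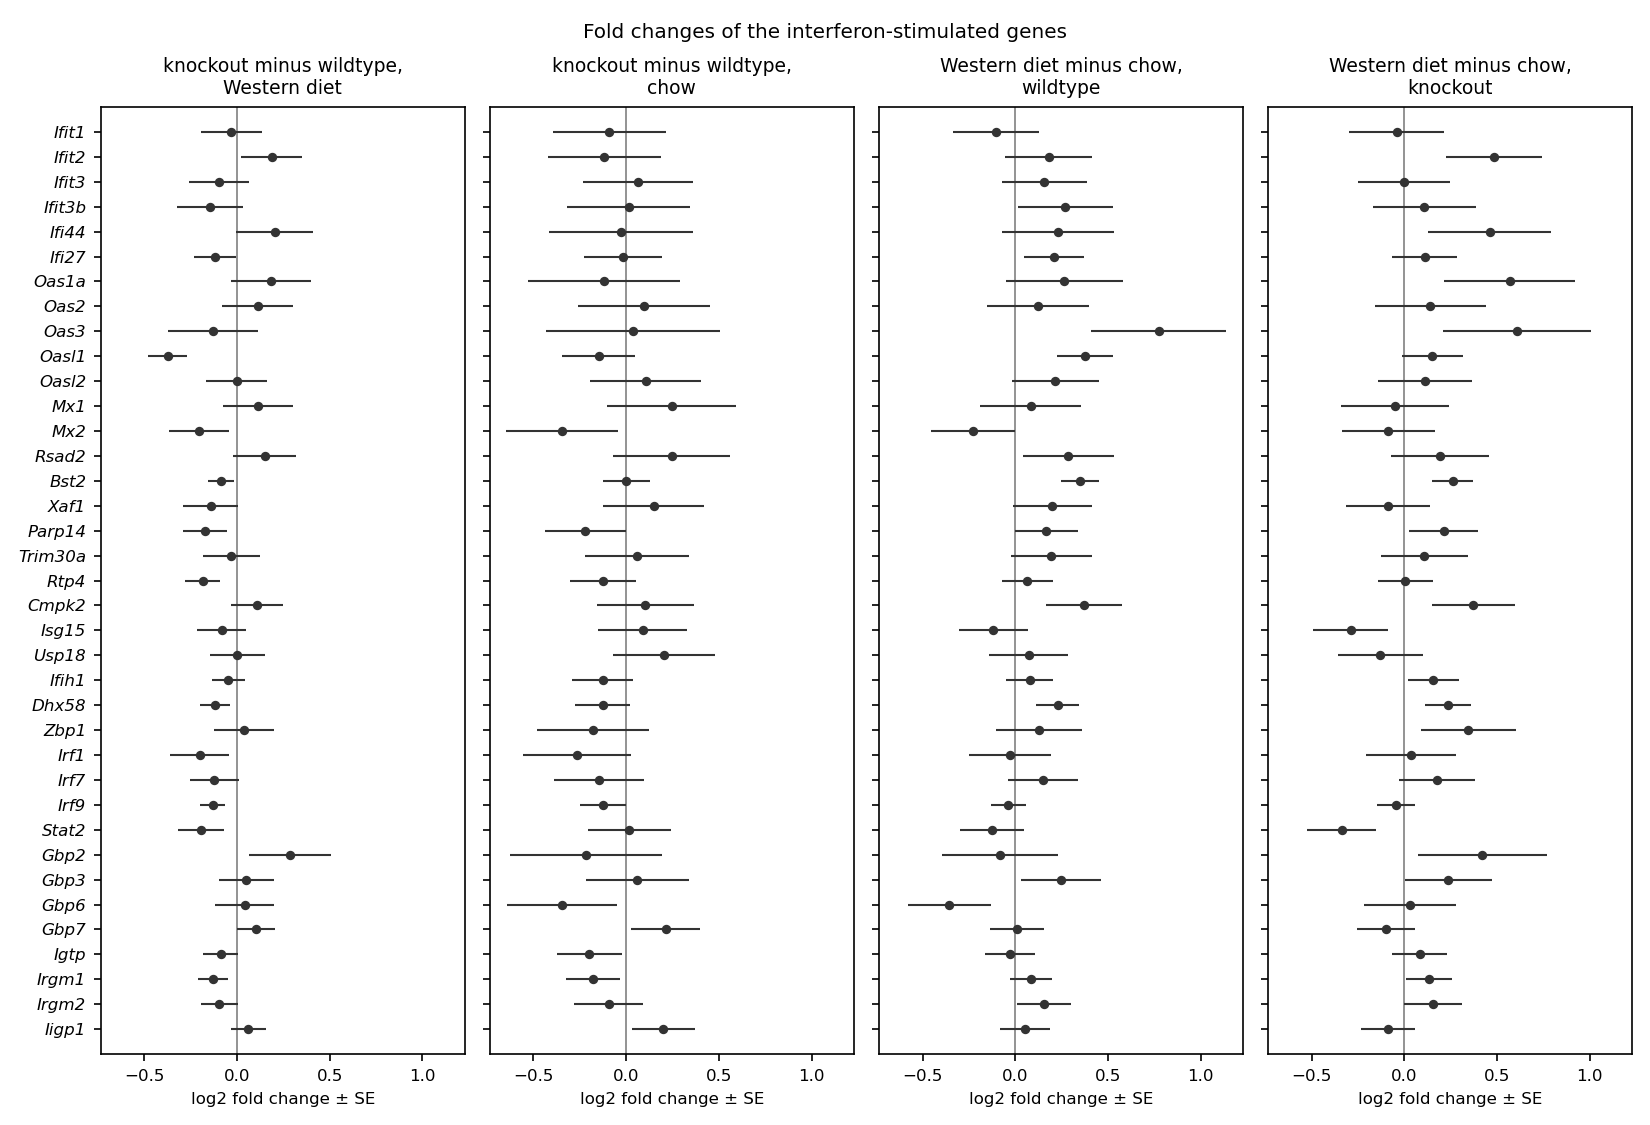
Log2 fold change with its SE (bars) for each of the 37 genes in 4 comparisons from the edgeR fit to all 39 livers, with 0 as a grey line. None of the 37 passed the adjusted threshold in any panel, and positive values prevail in the 2 diet panels.

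The test of the difference itself, the interaction of genotype and diet, called 0 of 37 genes and 0% of all genes, with 0 of 37 members at an unadjusted p under 0.05 against 1.86% of genes. The difference was positive for 17 of 37 genes (50.8% of all genes), with a median of -0.01. DESeq2 and limma voom called 0 as well. The smallest p belonged to Gbp6 (log2 difference of the diet effects, knockout minus wildtype, 0.39, SE 0.34), Gbp2 (0.50, SE 0.47), Oasl1 (-0.23, SE 0.22) and Xaf1 (-0.29, SE 0.31), each with an adjusted p of 1.00. For 32 of 37 genes the 95% interval lay within 2-fold either way. Without the 4 libraries and knockout Western diet F, the difference was negative for 35 of 37 genes (94.6%, against 47.5% of all genes), with a median of -0.27, and 0 of 37 passed. That setting was chosen with the values known. It leaves out the highest knockout Western diet liver (F) and the highest wildtype chow liver (A), and both removals by themselves lower the difference. The value of Gbp2 ran down to -0.10 without wildtype chow A, a liver with 8.47 CPM of Gbp2 against 1.27 to 3.73 CPM in the other 4 of its group.

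Around the 37 genes, the rest of the pathway was read from lists of genes by role. Ligand RNA was close to absent. Of 21 interferon genes, 14 had 0 counts in all 39 libraries, and none passed the filter. Ifng, interferon gamma, had 16 counts in all, spread over 9 libraries with at most 3 in one. Ifnb1 had 2 counts, both in wildtype Western diet N, and Ifnk had 14 counts over 8 libraries. A count of 0 in a library allows up to 3 counts, or 0.0986 to 0.350 CPM across libraries, so low ligand RNA is not detectable at this depth. The 5 tested receptor genes, 14 of upstream sensing and 7 of restraint held 0 called genes in any comparison.

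The list of other interferon-induced genes did hold calls. In wildtype mice, 3 of 65 were higher on Western diet and 0 lower (1.39% of all genes passed). Tap1 and Psmb9 belong to the supply of peptides to MHC class I, as a transporter subunit and a subunit of the immunoproteasome, and Lgals3bp is a secreted glycoprotein that binds galectins. Tap1 was at 52.4, 39.4, 48.0, 34.1 and 41.9 CPM in wildtype chow A to E and ranged from 46.9 to 80.5 CPM (median 64.2) in wildtype Western diet livers. All 15 Western diet livers exceeded the chow mean of Tap1, and chow livers A and C reached into their range. Tap1 rose by 0.57 on the log2 scale (SE 0.11, adjusted p = 0.0198). Psmb9 was at 30.4, 22.4, 24.4, 22.5 and 29.3 CPM in wildtype chow and ranged from 27.2 to 48.9 CPM (median 35.3) on Western diet, and it rose by 0.51 (SE 0.12, adjusted p = 0.0303). Lgals3bp was at 78.8, 77.9, 65.0, 64.3 and 80.5 CPM in wildtype chow and ranged from 83.0 to 142 CPM (median 110) on Western diet, without overlap, and it rose by 0.61 (SE 0.14, adjusted p = 0.0312). With the running number of the library as a covariate none of the 3 passed (adjusted p of 0.0859 for Tap1, 0.127 for Psmb9 and 0.102 for Lgals3bp), nor did any other gene. The log2 fold changes there were 0.50, 0.46 and 0.63. Without the filter on low counts, where 44 genes passed, Lgals3bp did not (adjusted p = 0.0638). The calls also changed when single chow livers were left out: without wildtype chow B or D, 0 of the list passed, and without C or E, Tap1 alone passed. In these fits the log2 fold changes stayed at 0.57 to 0.65 for Lgals3bp and 0.46 to 0.56 for Psmb9. Without wildtype chow A 7 passed, and without the 4 libraries 9 passed, all of them higher (8.66% of all genes passed). The share of all genes that passed with a single chow liver left out is not reported here, so those counts describe the fits and not the list.

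In knockout mice 0 of the 65 passed in edgeR, with 6 at an unadjusted p under 0.05 (19.2% of all genes). DESeq2 called 1 and limma voom 2, where 1.5% and 5.26% of all genes passed. Tap1 had a log2 fold change of 0.46 (adjusted p = 0.0966) and Lgals3bp of 0.50 (adjusted p = 0.124). After the 4 libraries were left out, 6 of the 65 passed in knockout mice, 5 of them higher, where 17.2% of all genes passed, so the list held no more calls than genes at large. Tap1 was then at 0.65 (adjusted p = 0.00107) and Lgals3bp at 0.71 (adjusted p = 0.00448). Psmb9 did not pass in knockout mice in either fit (0.23, adjusted p = 0.302, and 0.32, adjusted p = 0.137). Between the genotypes 0 of the 65 passed in edgeR on either diet, where 0.00654% of all genes passed on each. At an unadjusted p under 0.05 there were 5 of 65 on Western diet (5.08% of all genes) and 1 of 65 on chow (2.74% of all genes). On Western diet the smallest p of the lists were those of Ifitm2, which blocks virus entry (-0.36, adjusted p = 0.943), and Parp10, an ADP-ribosyltransferase (-0.18, adjusted p = 0.943). On chow they were those of Parp11 (0.42) and Pias1, an inhibitor of STAT signalling (0.17), and in the interaction those of Adar, an RNA editor that limits sensing of cellular RNA (-0.39), and Parp11 (-0.39), all at an adjusted p of 1.00.

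Knockout Western diet F is the liver in which the programme stood highest, and its profile is described here without a test, since it is a single mouse noticed for its values. It was the highest of all 39 livers for 25 of the 37 genes. Against the other 14 knockout Western diet livers it exceeded every one for 32 of 37 genes, where it did so for 12.0% of all genes tested, and it was at least 2-fold above their median for 21 of 37 genes, where this held for 7.71% of all genes. The median ratio over the 37 genes was 2.25. Its library was also the deepest, at 30438808 counts.

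By role, liver F exceeded the other 14 for 20 of 20 effectors (median ratio 2.39), for both Isg15 and Usp18 (2.19 and 2.84), and for 3 of 3 sensors (median 1.49). Oas1a, a synthase of the RNase L pathway, was at 12.6 CPM against 1.88 to 6.12 CPM in the other 14 livers, a ratio of 4.10 to their median. Reads of Oas1a and its near-identical copy Oas1g, and of Ifit3 and Ifit3b, could have been split between copies in counting, so their values are uncertain. Ifi44, an interferon-induced protein of the cytoplasm, was at 11.4 CPM against 1.30 to 4.62 CPM, a ratio of 3.30. Rsad2, which makes an antiviral nucleotide, was at 43.9 CPM against 12.3 to 22.7 CPM, a ratio of 2.69. For all 3 genes liver F stood clear of its group.

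Among the transcription factors only Irf7, the amplifier of type I interferon production, exceeded the group, at 103 CPM against 25.9 to 69.1 CPM. Irf1, Irf9 and Stat2 lay inside the range of the other 14 livers, with Stat2 at a ratio of 1.00 to their median. Of the GTPases, 6 of 8 exceeded the group, from Gbp2 at a ratio of 3.66 to Irgm1 at 1.31, whereas Irgm2 lay inside the range and Iigp1 was at a ratio of 0.99. Of the list of other interferon-induced genes, liver F exceeded the other 14 for 41 of 65. Cxcl10 and Cxcl9, chemokines that attract T cells, were at ratios of 4.80 and 4.00.

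**Figure D5:**
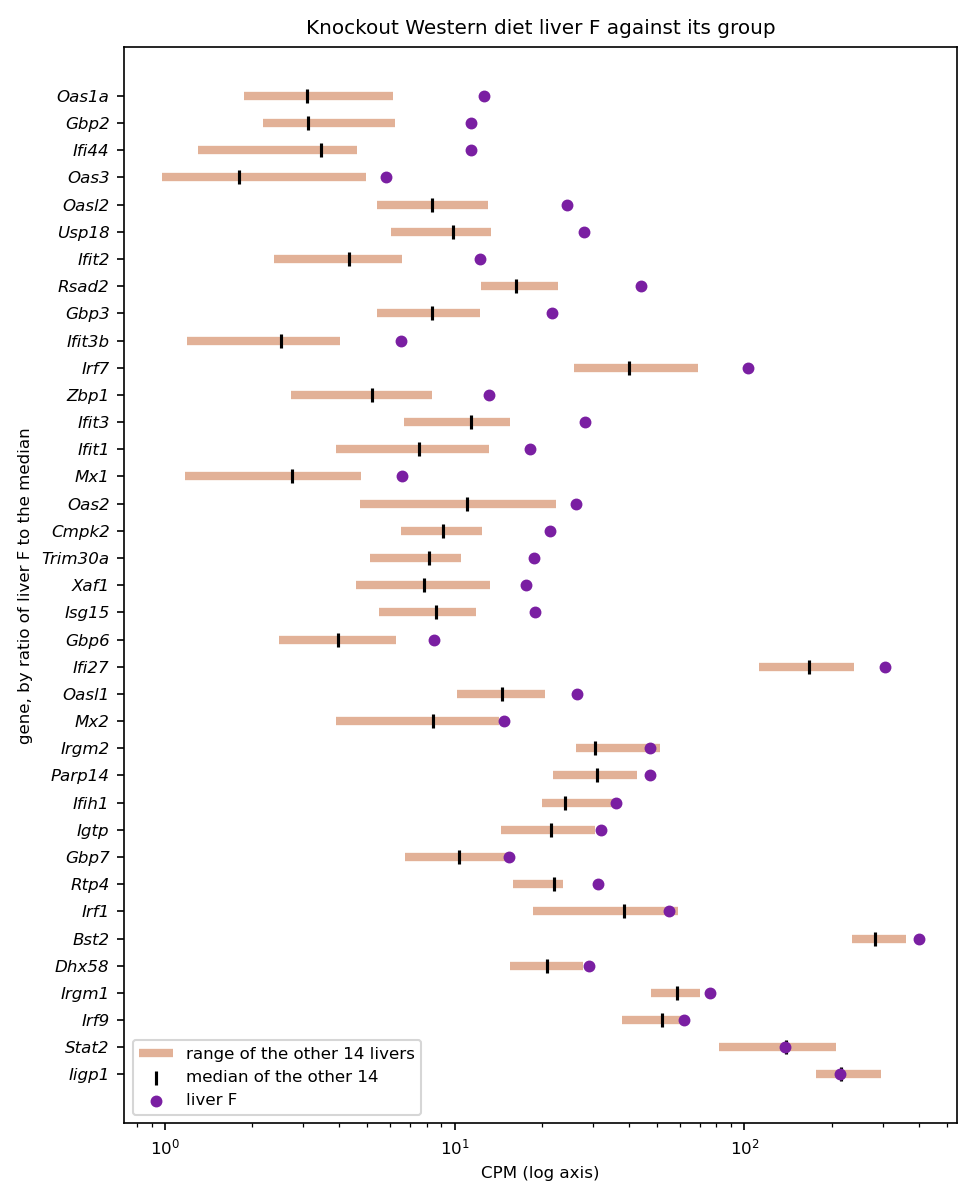
CPM on a log axis of each of the 37 genes in knockout Western diet liver F (purple points), with the range (bars) and median (ticks) of the other 14 knockout Western diet livers, ordered by ratio. Liver F lies above the bar for 32 genes, and Irgm2, Irf1, Irf9, Stat2 and Iigp1 lie on it.

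Ligand RNA in liver F was as sparse as elsewhere, with 2 counts of Ifng and 2 of Ifnk and 0 of the other 19. Receptors Ifnar1 and Ifnar2 were at ratios of 1.03 and 1.06 to the median of the other 14, and Ifngr1 at 1.82. Markers of other cells moved with the liver. The 7 markers of other macrophages and monocytes summed to 64.0 CPM against 4.82 to 15.1 CPM in the other 14 livers, with 5 of the 6 tested above all of them and none at 0. Trem2 (11.5 against at most 5.28 CPM), Gpnmb (21.2 against at most 1.12 CPM), Itgax (11.8 against at most 2.14 CPM) and Ccr2 (9.24 against at most 2.69 CPM) led. The 6 stellate cell markers summed to 678 CPM against 177 to 387 CPM. The 12 markers of T and NK cells summed to 13.4 CPM against 5.67 to 12.4 CPM, and the 5 of red blood cells to 95.8 CPM against 97.0 to 233 CPM. The 6 Kupffer cell markers, at 674 CPM, lay inside the range of the group as a sum, with 2 of the 6, Marco and Cd5l, above all other livers. Sums of plasmacytoid dendritic cell (98.5 CPM), neutrophil (3.94 CPM), B and plasma cell (6.27 CPM), sinusoidal endothelial (282 CPM), hepatocyte (51193 CPM) and acute phase genes (608 CPM) lay inside the range. Even so, 3 of 4 tested plasmacytoid dendritic cell markers exceeded all other livers, and 2 of 2 neutrophil and 3 of 4 acute phase genes were at least 2-fold above the median. The part of these cells and of the depth in the values of liver F was not tested.

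Wildtype chow A, the second liver in the order, differed in pattern. It exceeded the other 4 wildtype chow livers for 27 of 37 genes, where it did so for 27.97% of all genes tested, and for 8 of 8 GTPases, 15 of 20 effectors and 3 of 3 sensors. The median ratio was 1.49, and Gbp2 had the largest, 4.00. Isg15 (1.05), Usp18 (0.97), Bst2 (0.94) and Irf7 (0.84) were near or below the median of the other 4, and all except Bst2 are among the genes that were at least 2-fold above the group median in liver F. By sterol synthesis genes wildtype chow A is among the 4 libraries named above, and its 4 acute phase genes summed to 2813 CPM, against 62.8 to 3937 CPM in the other 4 of its group, of which wildtype chow E was the highest. Its Kupffer cell markers summed to 667 CPM against 377 to 493 CPM, its T and NK cell markers to 11.7 CPM against 5.21 to 10.8 CPM, and its B and plasma cell markers to 11.2 CPM against 4.71 to 8.44 CPM. Its hepatocyte markers, at 41646 CPM against 58720 to 78712 CPM, were the lowest of its group, as were its sinusoidal endothelial markers, at 227 CPM against 281 to 314 CPM. The part of these in its interferon-stimulated genes was not tested.

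At the low end, knockout Western diet D was the lowest of all 39 livers for 14 of the 37 genes and the lowest of its group for 16, where it was lowest of its group for 6.29% of all genes tested. The median ratio to the other 14 livers was 0.70. Ifi44 (0.35), Oas2 (0.39) and Mx1 (0.39) had the lowest ratios, and Gbp2 (1.05) and Ifit2 (1.03) were the only genes of the 37 above the median. In knockout Western diet livers the median ratio spanned from 0.70 in liver D to 1.22 in liver H, with liver F apart at 2.25. In wildtype Western diet livers it spanned from 0.72 in liver C to 1.23 and 1.24 in livers N and I, so that the spans were alike apart from liver F. Wildtype Western diet N led its group for 7 of 37 genes, where it did so for 9.77% of all genes tested. Among the 7 were 3 of 4 transcription factors, with Irf1 at 104 CPM, a ratio of 2.59 to the median of the other 14.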

How the data were processed

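Liver RNA of 39 mice was sequenced in paired-end reads, with 1 library per mouse in 4 groups of genotype and diet. The authors deposited raw counts per gene. Per the submitters' processing notes, STAR 2.7.8a, featureCounts 2.0, FastQC and MultiQC were used with GRCm39, and the annotation release and strand setting are not given in the sources used here. Of 55416 Ensembl IDs, 52083 had a symbol (99.4% of counts). Library totals of 8578865 to 30438808 counts limit the precision of low genes, and limits for counts of 0 cover counting error only.

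Genes were filtered with filterByExpr (minimum count 10, minimum total 15), scaled by TMM and tested in 1 edgeR 4.0.16 quasi-likelihood fit to all 39 libraries in R 4.3.3, with Benjamini-Hochberg adjustment over 15296 genes and a threshold of 0.05. Log2 CPM used a prior count of 2. Tests were two-sided and were tried on simulated counts first. DESeq2 1.42.0, limma 3.58.1 voom with quality weights, other scaling, no filter, a replicate block, library number as a covariate, a fit to the compared groups alone and leaving out libraries were alternatives. Named are, per comparison, the 4 members with the smallest p, for levels the 2 of each role with the smallest p, and of the pathway lists the genes that passed and the 2 with the smallest p. Single livers, and the members described in them, were chosen after their values were seen, as was Isg15 where named for the knockout diet comparison. The members and lists were chosen with earlier results of these data known. Some items are not reported here.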

Additional observations from a re-analysis of the deposited data

Results flagged for a closer look

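Each of the 37 genes was examined for a liver far from the others in the 2 chow groups, which makes 74 groups of values, and 7 held such a liver. Chance gives about 1 in 20 groups where groups are independent. These genes were read in the same livers, so the 7 cannot be set against that rate. Wildtype chow A accounted for 4 of the 7, all of them high. Xaf1, which promotes apoptosis, was at 14.6 CPM there against 4.79 to 7.56 CPM in the other 4 livers. Trim30a, a ubiquitin ligase, was at 13.5 CPM against 5.94 to 6.77 CPM. Rtp4 was at 34.0 CPM against 18.5 to 22.2 CPM, and Irgm2 at 43.0 CPM against 30.4 to 32.8 CPM.

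The other 3 were spread over the knockout chow livers. Rsad2 was at 13.1 CPM in liver B against 16.6 to 17.0 CPM in the other 3, Gbp6 at 3.29 CPM in liver D against 4.78 to 4.92 CPM, and Iigp1 at 287 CPM in liver C against 205 to 216 CPM. Groups of 15 are not covered by this check, so knockout Western diet F does not appear here.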

How the results depend on the processing

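No member passed in the main settings. In wildtype mice between the diets, 1 member (Bst2) passed under DESeq2, 1 under limma voom and 1 without the 4 libraries and knockout Western diet F. In knockout mice 1 passed without the 4 libraries (Stat2) and 1 without these and liver F (Isg15). Leaving out each library gave 0 to 1 members in wildtype mice and 0 in the other 4 comparisons. Gbp6 between genotypes on chow turned to 0.012 and 0.016, and Irgm1 to 0.0084 and 0.013, without the 4 libraries and without these and liver F. Without these and liver F the interaction of Gbp6 was -0.10, and that of Gbp2 ran from -0.10 to 0.82 over single libraries left out. The cause was not tested.

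Letters did not pair the mice (mean correlation of deviations -0.010 over 15 Western diet and -0.066 over 4 chow pairs). With the replicate block 0 members passed in all 5 comparisons, and the diet medians were -0.02 in wildtype and -0.06 in knockout mice. The log2 fold change of Bst2 in wildtype mice was 0.22 with the block (adjusted p = 0.239). Of the other interferon-induced genes, 0 in place of 3 passed in wildtype mice with the block or with library number, and 8 under limma voom. Calls over all genes moved more: 212 for diet in wildtype mice, but 44 without the filter, 50 with the block, 116 with libraries L and M summed, 515 under DESeq2, 1020 under limma voom, 1339 without the 4 libraries and 0 with library number. For diet in knockout mice 1 gene passed, but 230 under DESeq2, 804 under limma voom and 2657 without the 4 libraries. Few chow livers limit the diet and chow comparisons, and genes with few counts, such as Oas3 with 10 in one library, are the least precise.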
